A study of Mus musculus with 4 samples.

Results

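The genes described here are those of the mitochondrial respiratory chain and ATP synthase, encoded by the nucleus and by mitochondrial DNA. They were chosen by name alone: every row of the gene table whose symbol begins with Nduf, Cox4, Cox5, Cox6, Cox7, Cox8, Uqcr, Sdh or Atp5, and the protein-coding genes of mitochondrial DNA, whose symbols begin with mt-. The rule took 110 of 31053 genes, of which 97 are nuclear and 13 are mt- genes. Of the nuclear rows, 36 belong to complex I, 4 to complex II, 8 to complex III, 20 to complex IV, 17 to complex V (Atp5s, a coupling factor, among them) and 12 are assembly factors of complexes I and II. The mt- genes code for 7 subunits of complex I, 1 of complex III, 3 of complex IV and 2 of complex V. The symbol Atp5o stands on 2 rows of the table, 1 of which held a single UMI (a unique molecular identifier, which marks 1 captured RNA molecule) in all epithelial cells, so reads of this gene may have been divided or lost. Cox7b2, Cox8b and Cox8c had no UMI in epithelial cells of any library.

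Complexes I to IV pass electrons from NADH and succinate to oxygen. Complexes I, III and IV, but not complex II, pump protons across the inner mitochondrial membrane, and complex V uses the returning protons to make ATP. Complexes I, III, IV and V are built from subunits of both genomes, while every subunit of complex II comes from nuclear genes. In the small intestine, absorptive enterocytes use this chain for nutrient uptake and fat handling, and stem cells at the crypt base depend on it for their function.

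The cells came from small-intestinal crypts of female C57BL/6 mice, 8 to 12 weeks old, collected 7 days after transplantation of bone marrow into lethally irradiated hosts. Syngeneic recipients, the controls, received C57BL/6 marrow and allogeneic recipients, labelled as having graft-versus-host disease, received BALB/c marrow; all recipients were irradiated, so both groups share that injury. Each group has 2 libraries, and each library is a pool of 3 to 4 mice, so the spread among single mice is not seen. The letters KO open the sample names; their meaning is not given in the labels, and no knockout was assumed. Crypt cells were profiled with the 10x Genomics 3′ kit, which counts RNA ends, so that counts are not scaled by transcript length.

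The 4 libraries held 14961466 to 26677842 UMIs in 3257 to 6341 barcodes, and 12185 of 16565 barcodes were kept. Barcodes above 20% mt- UMIs, which were left out, made up 14.6% and 14.9% of the syngeneic libraries, 27.2% of allogeneic 1 and 11.2% of allogeneic 2. Kept cells took a class from per-cell marker scores: 9031 epithelial cells were classed, 665 of them within 0.1 of the minimum score, and 2659 kept cells had no class. Values for all epithelial cells rest on 11690 cells, the classed ones and those with no class. Markers matched the label of crypt epithelium. Epcam, an epithelial surface protein, stood at 2066, 2213, 2232 and 3387 UMIs per 1000000 UMIs (CPM) in the summed epithelial cells of syngeneic 1, syngeneic 2, allogeneic 1 and allogeneic 2, and Ptprc, the pan-leukocyte marker, at 0.45 to 1.03 CPM. The 17 T and NK cell markers together stood at 19.0 and 5.8 CPM in syngeneic and at 43.3 and 15.3 CPM in allogeneic epithelial cells. The libraries shared 29 barcodes, 17 of them among kept cells. Stem-like cells of allogeneic 2 numbered 50, against 178 to 345 in the other libraries, and its enterocyte-like cells 1713, against 341 to 487. Allogeneic 2 thus stood apart in its cells as well as in the values below.

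Promoters of 78 of the 96 nuclear symbols were found in RefSeq's promoter set (GRCm38.p6), as the 250 bases upstream of the annotated start. They are shown for 6 members that the results below turn on or that hold matches to known motifs of respiratory chain genes. The motifs searched, on both strands, were the palindromic NRF1 element with 1 free base, CCGGAAG (ETS factors, of which GABP is known at these genes) and AAGATGGCG (YY1). Capitals mark matches, which do not overlap in these windows.
Sdha, chr13:74350241-74350490, minus strand: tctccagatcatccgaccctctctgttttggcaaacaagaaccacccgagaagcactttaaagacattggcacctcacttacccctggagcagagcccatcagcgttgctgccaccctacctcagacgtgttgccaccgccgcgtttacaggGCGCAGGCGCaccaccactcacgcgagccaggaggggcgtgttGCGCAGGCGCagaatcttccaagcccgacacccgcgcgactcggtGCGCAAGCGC
Sdhd, chr9:50603850-50604099, minus strand: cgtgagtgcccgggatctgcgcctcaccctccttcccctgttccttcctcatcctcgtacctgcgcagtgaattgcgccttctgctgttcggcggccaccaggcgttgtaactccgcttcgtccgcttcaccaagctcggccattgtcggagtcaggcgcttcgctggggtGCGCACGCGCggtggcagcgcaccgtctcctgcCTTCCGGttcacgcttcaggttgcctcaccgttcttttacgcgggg
Cox6a1, chr5:115348959-115349208, minus strand: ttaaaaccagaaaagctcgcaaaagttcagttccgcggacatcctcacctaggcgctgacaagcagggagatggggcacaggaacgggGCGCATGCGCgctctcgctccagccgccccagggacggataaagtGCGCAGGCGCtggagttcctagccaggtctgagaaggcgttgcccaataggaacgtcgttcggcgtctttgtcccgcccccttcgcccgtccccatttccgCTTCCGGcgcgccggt
Atp5k, chr5:108434400-108434649, minus strand: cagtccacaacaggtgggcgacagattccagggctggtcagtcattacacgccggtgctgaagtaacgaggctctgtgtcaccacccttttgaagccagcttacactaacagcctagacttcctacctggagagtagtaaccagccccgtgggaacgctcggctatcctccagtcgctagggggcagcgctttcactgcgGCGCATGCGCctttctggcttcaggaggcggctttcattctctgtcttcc
Cox7c, chr13:86046796-86047045, minus strand: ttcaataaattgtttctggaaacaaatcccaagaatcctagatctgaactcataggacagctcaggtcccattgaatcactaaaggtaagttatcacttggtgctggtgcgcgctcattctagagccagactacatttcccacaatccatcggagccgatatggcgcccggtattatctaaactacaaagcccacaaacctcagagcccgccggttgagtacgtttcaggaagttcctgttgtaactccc
Ndufc2, chr7:97399753-97400002, plus strand: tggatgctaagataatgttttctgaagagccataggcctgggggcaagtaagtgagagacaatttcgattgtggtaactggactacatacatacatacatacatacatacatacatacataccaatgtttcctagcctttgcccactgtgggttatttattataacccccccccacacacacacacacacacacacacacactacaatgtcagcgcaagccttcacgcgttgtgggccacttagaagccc
Sdha, the flavoprotein subunit of succinate dehydrogenase, holds 3 matches to the NRF1 motif and Cox6a1, a subunit of cytochrome c oxidase, holds 2 and an ETS match. Sdhd, a membrane anchor of succinate dehydrogenase, holds 1 of each, and Atp5k of ATP synthase 1 NRF1 match. The windows of Cox7c and Ndufc2 hold none of these letters. Over the 83 promoters of nuclear members, 18.1% held the NRF1 motif, 19.3% the ETS motif and 1.2% the YY1 motif, against 3.74%, 6.91% and 0.606% of all 32851 promoters of the same length. A match is a description of the sequence, and none of the data here measured binding.

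The summed nuclear members did not set the allogeneic libraries apart from the syngeneic ones; they set allogeneic 2 apart from the other 3 libraries. In all epithelial cells they took 3.63% and 3.60% of UMIs in the syngeneic libraries, 3.58% in allogeneic 1 and 5.41% in allogeneic 2. The 95% Wilson intervals, which cover counting error only, ran from 3.567% to 3.587% in allogeneic 1 and from 5.405% to 5.423% in allogeneic 2. The mt- members took 8.17%, 7.77%, 8.92% and 6.04% of UMIs in the same order. Allogeneic 2 was thus the library with the most nuclear and the least mt- respiratory chain RNA, while allogeneic 1 held the most mt- RNA. The 18 enterocyte markers summed to 14278, 17848, 10232 and 31416 CPM in the same cells. Like the nuclear share, this sum was highest in allogeneic 2 and lowest in allogeneic 1, but the syngeneic libraries stood in the opposite order. With the classes mixed equally the nuclear share was 3.71%, 3.74%, 3.57% and 5.17%.

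Allogeneic 2 was the highest library for the nuclear share in every class. Stem-like cells were gated on markers of crypt-base stem cells, Lgr5 among them, but Lgr5 itself was not required. Nuclear members took 3.67%, 3.96%, 3.43% and 4.74% of UMIs in stem-like cells and 4.45%, 4.60%, 4.07% and 5.27% in cycling progenitor-like cells. The values in enterocyte-like cells were 3.48%, 3.17%, 3.22% and 5.47%. Allogeneic 1 lay inside or below the syngeneic range in these classes. Paneth-like cells, which secrete antimicrobial peptides, held the lowest nuclear shares in each library, at 1.77%, 1.58%, 1.61% and 2.88%. Goblet-like cells, which secrete mucus, held 3.61%, 3.64%, 3.22% and 4.995%. Of the mt- members, enterocyte-like cells held the largest share of any class in each library, at 11.2%, 11.03%, 14.1% and 8.65%. Cycling progenitor-like cells were the class in which both allogeneic libraries stood below both syngeneic ones for this share, at 7.82% and 4.38% against 8.29% and 8.04%.

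The number of nuclear UMIs per mt- UMI put the 2 allogeneic libraries on opposite sides of the syngeneic pair. In all epithelial cells it was 0.444 and 0.464 in the syngeneic libraries, 0.401 in allogeneic 1 and 0.896 in allogeneic 2. Allogeneic 2 was the highest and allogeneic 1 the lowest library in each of the 7 epithelial classes. In enterocyte-like cells the ratio was 0.310, 0.287, 0.228 and 0.633, and in stem-like cells 0.421, 0.461, 0.375 and 0.935. T or NK-like cells, which are not epithelial and numbered 12, 33, 223 and 196, had 0.440, 0.549, 0.465 and 1.05 nuclear UMIs per mt- UMI, so the high ratio of allogeneic 2 was also seen outside the epithelium. These cells held Epcam at 1345, 696, 233 and 797 CPM, a sign of epithelial RNA among them, whose part in the ratio was not tested.

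**Figure D1:**
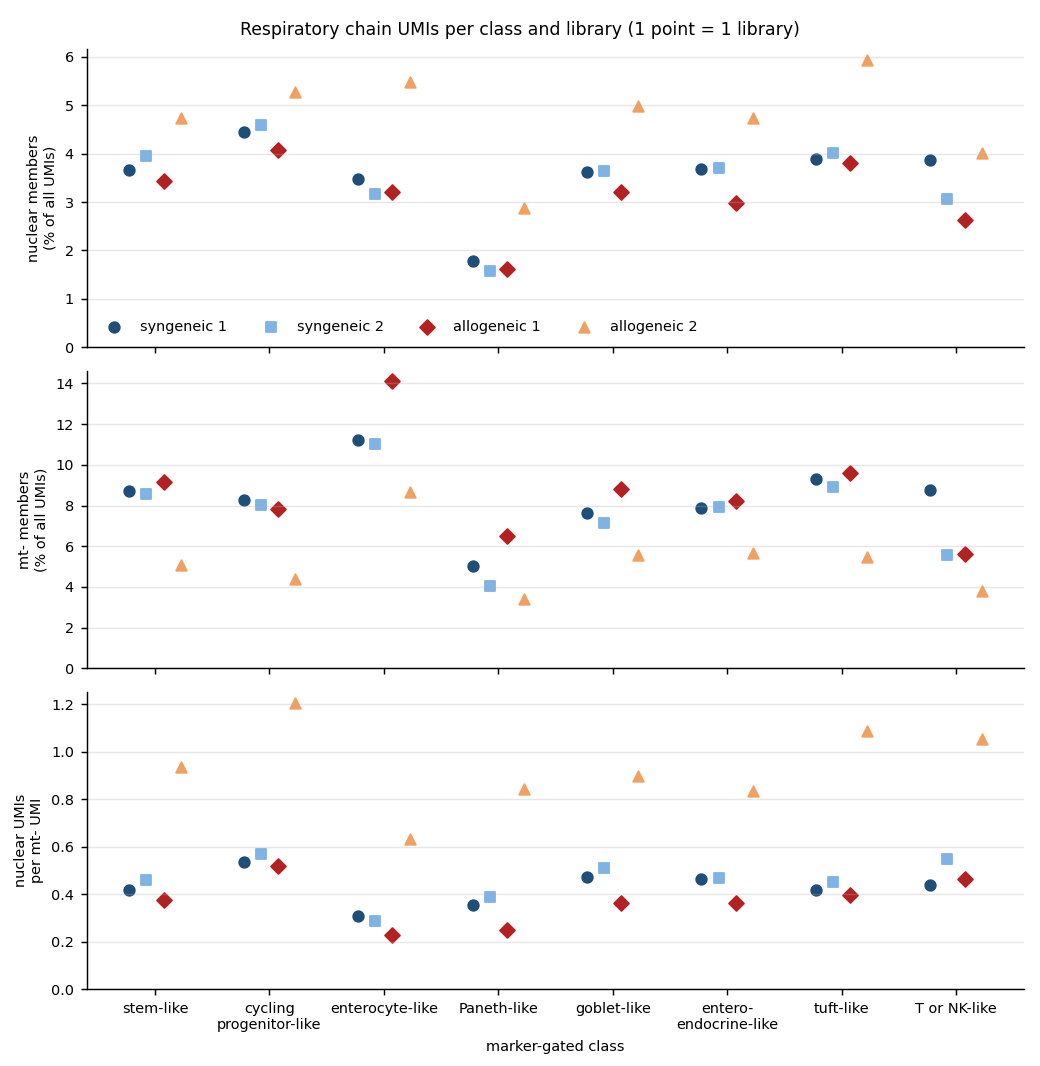
Share of UMIs from the nuclear members (top, percent), share from the mt- members (middle, percent) and nuclear UMIs per mt- UMI (bottom), by marker-gated class; each point is 1 library, 2 per group. Allogeneic 2 is the highest library for the nuclear share and for the ratio in each class, and the lowest for the mt- share.

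Over the 4 libraries the group difference in the nuclear share of epithelial cells was 0.879 percentage points (3.62 ± 0.0179 in syngeneic and 4.49 ± 1.30 in allogeneic libraries, SD, n = 2 each), less than the spread between the 2 allogeneic libraries. Without allogeneic 2 the difference was -0.0395 points, and without allogeneic 1 it was 1.80 points. In enterocyte-like cells the difference was 1.02 points, with -0.111 without allogeneic 2 and 2.15 without allogeneic 1. When only cells with at most 10% mt- UMIs were kept, both allogeneic libraries stood above both syngeneic ones in enterocyte-like cells, at 3.94% and 5.84% against 3.57% and 3.45%. Allogeneic 1 then kept 42 enterocyte-like cells, against 239 and 254 in the syngeneic libraries and 1283 in allogeneic 2, and the limit acts on the mt- share itself. The same order held in all epithelial cells, at 3.66% and 5.44% against 3.55% in both syngeneic libraries.

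edgeR's quasi-likelihood test on counts summed per library called no member at an adjusted p under 0.05, in either direction. In all epithelial cells 90 nuclear and 13 mt- members passed the filter on low counts, and 0 were called, where 0.158% of all 12037 genes tested were; at an unadjusted p under 0.05 the members also gave 0, where 9.94% of all genes were, and DESeq2 called 0. The median log2 fold change was 0.28 over the nuclear members and 0.20 over the mt- members, against 0.03 over all genes tested. Without allogeneic 2 the nuclear median was -0.19, and without allogeneic 1 it was 0.64. On CPM, with no TMM factors, the median log2 departure of the nuclear members from the syngeneic mean was -0.023 in allogeneic 1 and 0.399 in allogeneic 2. The size of these medians thus depends on the scaling. The corresponding counts were 0 in stem-like cells (0.833% of all genes called), in cycling progenitor-like cells (3.68%), in enterocyte-like cells (2.57%), in Paneth-like cells (1.11%) and in goblet-like cells (0.349%). At an unadjusted p under 0.05 there were 2 nuclear members in stem-like cells, 0 in cycling progenitor-like, 13 in enterocyte-like, 1 in Paneth-like and 0 in goblet-like cells, and 2 mt- members, in enterocyte-like cells. Of all genes, 9.06%, 14.1%, 16.1%, 8.48% and 7.07% were under that p in the same order, so that the 13 nuclear members of enterocyte-like cells, 15.1% of those tested, were near the background. DESeq2 called 1 nuclear member, Ndufc2, and 1 mt- member, mt-Nd4l, both higher in allogeneic enterocyte-like cells, and none in the other classes. In enterocyte-like cells it called 3.09% of all genes, against 1.09% of the nuclear members. The DESeq2 share of all genes called was 2.43% in all epithelial cells and 0.575% to 2.31% in the other classes tested. Enteroendocrine-like and tuft-like cells fell below 40 cells in a library and were not tested.

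Enterocyte-like cells had the largest median over the nuclear members, 0.50, and over the mt- members, 0.60, with 0.01 over all genes tested. Their nuclear median was -0.11 without allogeneic 2 and 0.92 without allogeneic 1. The nuclear medians elsewhere were 0.11 in stem-like, 0.06 in cycling progenitor-like, 0.13 in Paneth-like and 0.23 in goblet-like cells. These values depend on the scaling: with library totals in place of TMM factors the median over all genes of enterocyte-like cells shifted to -0.20 and that over the nuclear members to 0.26, while in Paneth-like cells the medians became 0.23 over all genes and 0.34 over the nuclear members. With the reported low-count filter and gates, edgeR called no member in the fits of a class to all 4 libraries, with TMM factors or with library totals. Without the low-count filter it called 1 nuclear and 1 mt- member in enterocyte-like cells, where 4.38% of all genes were called. With the stricter gate it called 1 nuclear member in stem-like cells, where 2.76% of all genes were called.

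Which allogeneic library was kept decided both the number and the direction of calls. Without allogeneic 1, edgeR called 72 of 90 nuclear members higher in epithelial cells, where 23.8% of all genes were called higher. Without allogeneic 2 it called 20 of them lower and 0 higher, where 12.0% of all genes were called lower. The same pair of fits gave 74 of 89 higher (19.4% of all genes) and 5 of 88 lower (7.24%), with 3 higher, in enterocyte-like cells, and 38 of 89 higher (5.87%) and 9 of 90 lower (4.4%) in stem-like cells. With 1 library in a group, the test takes its spread from the syngeneic pair, which leaves the spread among allogeneic pools unmeasured. These fits used TMM factors, and none of them was run with library totals. The mt- members gave 2 higher and 3 lower calls in epithelial cells without allogeneic 1, and 2 higher without allogeneic 2. In stem-like cells they gave 1 higher and 8 lower, and 3 higher, and in enterocyte-like cells 6 higher and 2 lower, and 7 higher. All genes were called lower in 21.4%, 2.61% and 13.8% of cases without allogeneic 1 in these 3 sets of cells and higher in 10.9%, 6.01% and 8.77% without allogeneic 2, so the lower mt- calls of epithelial and enterocyte-like cells were near the background. Leaving out a syngeneic library gave 0 calls of members in each of these classes.

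**Figure D2:**
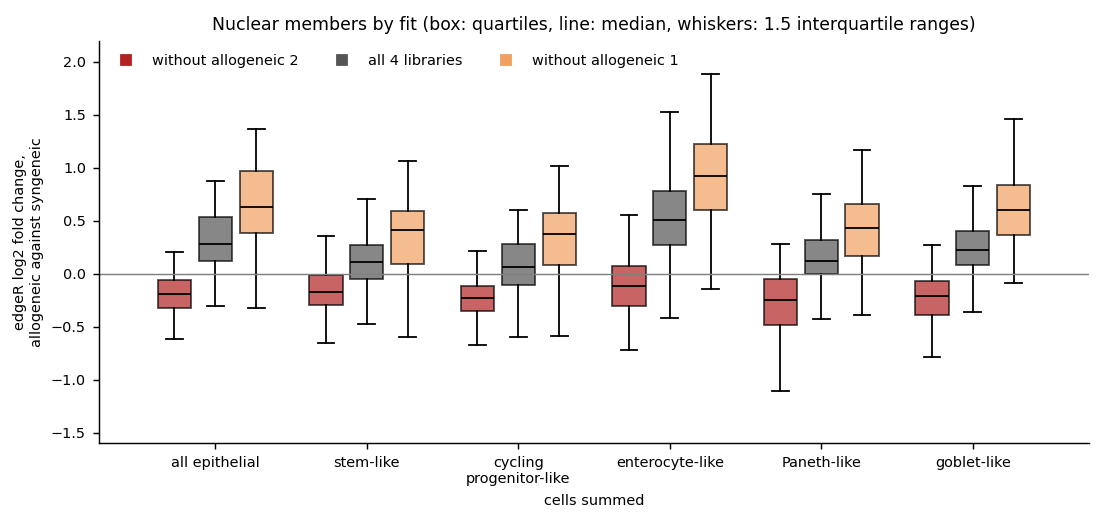
edgeR log2 fold changes (allogeneic against syngeneic) of the nuclear members by cells summed, for the fit to all 4 libraries and the fits without allogeneic 1 or without allogeneic 2; boxes show quartiles and median over genes. The medians lie above 0 without allogeneic 1 and below 0 without allogeneic 2 in each of the 6 sets of cells.

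Some members separated the groups without overlap, and the counts are set beside those of all genes tested, with no test of the difference. In epithelial cells 23 of 90 nuclear members were higher in both allogeneic libraries than in both syngeneic ones and 4 were lower, against 18.2% and 17.8% of all genes tested. In enterocyte-like cells the counts were 19 of 86 above (13.9% of all genes) and 7 below (34.2%), with 5 of 13 mt- members above and 1 below. The stem-like counts were 8 of 89 above (14.6%) and 17 below (23.1%), a lean towards lower values that all genes shared, and in Paneth-like cells 22 of 89 lay above (31.6%) and 1 below (8.58%), a lower share than that of all genes in both directions.

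Complex I, the NADH dehydrogenase, held 36 nuclear members whose summed level in epithelial cells was 9076 and 9072 CPM in syngeneic libraries, 8499 in allogeneic 1 and 12530 in allogeneic 2. Ndufa3, a small accessory subunit and the complex I member with the largest log2 fold change in epithelial cells, stood at 174, 205, 223 and 418 CPM. Both allogeneic libraries were above both syngeneic ones, and the log2 fold change of 0.87 ± 0.49 (SE) was not past the threshold (edgeR, adjusted p = 0.671). Without allogeneic 1 the log2 fold change of Ndufa3 was 1.37, and without allogeneic 2 it was 0.07.

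Ndufc2 and Ndufs1 of complex I were the only members whose allogeneic effect differed between enterocyte-like and stem-like cells in edgeR's test of that difference, which kept the library as a block. They are 2 of 90 nuclear members tested, or 2.22%, which is at the background, since among all genes 2.17% were called in this test. At an unadjusted p under 0.05 there were 22 nuclear and 7 mt- members, where 12.6% of all genes were, and DESeq2 called 1 nuclear and 3 mt- members. Ndufc2 (chr7:97400003-97407802, plus strand), an accessory subunit of the membrane arm, stood at 220, 152, 372 and 533 CPM in enterocyte-like cells and at 368, 385, 388 and 519 CPM in stem-like cells. Enterocyte-like levels were thus below stem-like levels in both syngeneic libraries and close to them in both allogeneic ones. Its allogeneic log2 fold change was 1.52 ± 0.38 in enterocyte-like (edgeR, adjusted p = 0.0779) and 0.37 ± 0.31 in stem-like cells (adjusted p = 0.821), and the difference was 1.21 ± 0.27 (adjusted p = 0.00292). The annotation (GENCODE M21) places a processed pseudogene, Gm16053, inside Ndufc2 on the same strand, so its count carries that uncertainty. Ndufs1 (chr1:63143596-63176833, minus strand), the largest iron-sulfur subunit of the complex, stood at 43.3, 31.3, 51.4 and 51.5 CPM in enterocyte-like cells and at 58.4, 65.7, 47.6 and 31.9 CPM in stem-like cells, the last from 12 UMIs. Both allogeneic libraries were above the syngeneic ones in the first class and below them in the second, and the difference was 1.16 ± 0.34 (edgeR, adjusted p = 0.0493). Neither class alone gave a call for Ndufs1, with log2 fold changes of 0.68 ± 0.29 and -0.46 ± 0.26 (edgeR, adjusted p = 0.295 and 0.674).

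Neither difference was called when a syngeneic library was left out or when the gate was stricter. edgeR's adjusted p for Ndufc2 was 0.149 without syngeneic 1, 0.748 without syngeneic 2, 0.703 with the stricter gate, 0.000622 without allogeneic 2 and 2.51e-07 without allogeneic 1, with differences from 0.97 to 1.48. For Ndufs1 it was 0.301, 0.835, 0.867, 0.139 and 0.00319 in the same order, with differences from 0.747 to 1.73, and DESeq2 gave 0.447. The stem-like sum of allogeneic 2 rests on 50 cells, and on 5 cells with the stricter gate.

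Complex II, succinate dehydrogenase, links the chain to the TCA cycle, and its 4 subunits were measured in each class. Sdha, the flavoprotein, stood at 162, 149, 172 and 119 CPM in epithelial cells and was lowest in allogeneic 2, unlike most nuclear members. Sdhb, the iron-sulfur subunit, stood at 294, 282, 249 and 374 CPM. The membrane anchors were Sdhc, at 149, 141, 168 and 177 CPM, and Sdhd, at 207, 194, 216 and 249 CPM, both higher in the 2 allogeneic libraries. No subunit was called by edgeR: the log2 fold changes were -0.08 ± 0.25 for Sdha, 0.21 ± 0.41 for Sdhb, 0.31 ± 0.29 for Sdhc and 0.28 ± 0.33 for Sdhd, with adjusted p from 0.806 to 0.946. In enterocyte-like cells Sdhc, at 133, 114, 154 and 211 CPM, had a log2 fold change of 0.80 ± 0.33 (edgeR, adjusted p = 0.269).

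Complex III, the cytochrome bc1 complex, held 8 nuclear members that summed to 4508, 4624, 4558 and 7159 CPM in epithelial cells. The largest log2 fold change among them was that of Uqcr11, a small subunit, at 527, 565, 607 and 1030 CPM in epithelial cells. Its log2 fold change was 0.69 ± 0.46 (edgeR, adjusted p = 0.73), -0.01 without allogeneic 2 and 1.14 without allogeneic 1. In enterocyte-like cells Uqcr11 was lowest in allogeneic 1 and highest in allogeneic 2, at 406, 388, 319 and 899 CPM, so the groups overlapped there.

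Complex IV, cytochrome c oxidase, departed most in allogeneic 2 among the complexes in epithelial cells: its 20 nuclear members summed to 1.69 times the syngeneic mean, while allogeneic 1 stood at 1.01 times. The sums were 10670, 10680, 10760 and 18050 CPM. Cox7c, a small subunit with the largest log2 fold change of the complex, stood at 773, 823, 1001 and 1544 CPM, higher in both allogeneic libraries (0.77 ± 0.43, edgeR, adjusted p = 0.67). Without allogeneic 2 its log2 fold change was 0.16 and without allogeneic 1 it was 1.18. In enterocyte-like cells Cox7c stood at 703, 670, 974 and 1660 CPM and had a log2 fold change of 1.19 ± 0.42 (edgeR, adjusted p = 0.205).

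Paired isoforms of complex IV showed which form these cells carried. Cox4i1, the common form, had 24755 to 73861 UMIs per library in epithelial cells, and Cox4i2, known from lung and hypoxia, 0 or 1. Cox6a1 had 5967 to 20766 UMIs and Cox6a2, the heart and muscle form, 0 to 2, and Cox6b1 had 9799 to 30261 and Cox6b2, the testis form, 71 to 87. Ndufa4, a subunit of complex IV despite its name, had 11515 to 27459 UMIs, and its paralog Ndufa4l2 0 to 7. Cox7b2, Cox8b and Cox8c, forms best known from testis and muscle, were at 0, where Cox7b had 7686 to 25149 and Cox8a 17197 to 54814 UMIs. A count of 0 allows up to 3 UMIs per library.

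Cox7a1, best known as the heart and muscle form of that subunit, was an exception among these isoforms. It had 596 to 2083 UMIs per library in epithelial cells, at 43.5, 53.0, 43.8 and 85.9 CPM. In enterocyte-like cells it stood at 166, 180, 220 and 196 CPM and in stem-like cells at 3.56, 2.94, 7.00 and 5.32 CPM, from 2 to 15 UMIs. Cox7a2 stood at 676, 725, 723 and 1267 CPM in epithelial cells and Cox7a2l, a factor of supercomplex assembly, at 275, 230, 308 and 181 CPM. Cox7a2 and Cox7a2l thus moved apart in allogeneic 2, the first being highest and the second lowest in that library, and edgeR called none of the isoforms it tested in any class.

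Complex V, ATP synthase, summed over its 17 nuclear members to 10780, 10460, 10740 and 15040 CPM in epithelial cells. The largest log2 fold change was that of Atp5k, a subunit of the membrane part that is known for dimer formation, at 303, 353, 426 and 682 CPM in epithelial cells. Its log2 fold change was 0.86 ± 0.44 (edgeR, adjusted p = 0.63), 1.28 without allogeneic 1 and 0.21 without allogeneic 2. Both allogeneic libraries were above both syngeneic ones for Atp5k and for Cox6a1, whose promoters are printed above; Cox6a1 stood at 444, 445, 526 and 856 CPM (0.74 ± 0.44, edgeR, adjusted p = 0.694), with 0.08 without allogeneic 2 and 1.17 without allogeneic 1.

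In all epithelial cells the 12 assembly factors had no such excess in allogeneic 2. They summed to 442, 430, 402 and 451 CPM in epithelial cells, 1.03 times the syngeneic mean in allogeneic 2 and 0.923 times in allogeneic 1. Ndufaf6, with the largest log2 fold change among them, stood at 19.3, 18.4, 20.3 and 25.1 CPM (0.35 ± 0.28, edgeR, adjusted p = 0.782), with -0.06 without allogeneic 2. In allogeneic 2 the nuclear subunits summed to 1.38 times the syngeneic mean for complex I, 1.16 for complex II, 1.57 for complex III and 1.42 for complex V. By class, the assembly factors of allogeneic 2 stood at 1.27 times the syngeneic mean in Paneth-like and 1.34 times in enteroendocrine-like cells. In the other epithelial classes they stood at 0.964 to 1.06 times. Complex II also lacked a clear excess in some classes of allogeneic 2. It stood at 0.913 times in stem-like, 0.855 in cycling progenitor-like, 1.04 in goblet-like, 1.02 in enteroendocrine-like and 1.1 in tuft-like cells. In enterocyte-like and Paneth-like cells it stood at 1.25 and 1.46 times.

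**Figure D3:**
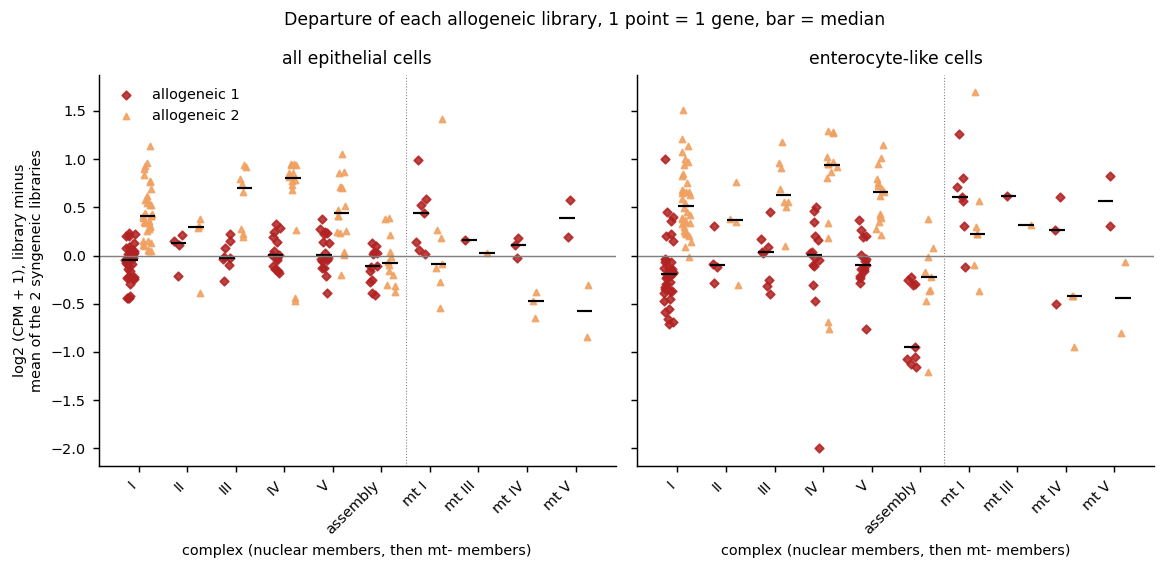
Departure of each allogeneic library from the mean of the 2 syngeneic libraries (log2 of CPM + 1) for each tested member, by complex, in all epithelial cells (left) and enterocyte-like cells (right); bars are medians over genes. In allogeneic 2 the median over nuclear subunits is highest for complex IV in the left panel, where its members Cox7a2l and Cox6b2 lie below 0. The mt- subunits of complexes IV and V lie below 0 in allogeneic 2 in both panels.

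Most nuclear members had their highest level of the 4 libraries in allogeneic 2: 73 of 90 in epithelial cells, or 81.1%, against 19.2% of all genes tested. The shares were 82.6% in enterocyte-like, 88.8% in Paneth-like, 74.2% in goblet-like, 64% in stem-like and 58.9% in cycling progenitor-like cells, where those of all genes were 15.5%, 42.8%, 19.5%, 25.2% and 15.6%. Allogeneic 1 was the lowest library for 38.9% of nuclear members in epithelial, 52.8% in stem-like, 60% in cycling progenitor-like, 52.3% in enterocyte-like, 47.2% in Paneth-like and 69.7% in goblet-like cells, where it was the lowest for 13.7%, 22.7%, 15.3%, 22.7%, 24.5% and 20.8% of all genes.

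Transcript length moved with this departure. Members are short: the median annotated transcript was 772 bases over the 90 tested members, against 2642 bases over 11546 genes. In allogeneic 2, Spearman's rho of length with the log2 departure from the syngeneic mean was -0.538 over the members and -0.325 over all genes; in allogeneic 1 it was -0.094 and 0.221. The 54 members under 1000 bases had a median departure of 0.64 in allogeneic 2 and the 36 longer ones 0.23, where all genes gave 0.13 and -0.26. Those values are of all epithelial cells. In enterocyte-like cells rho in allogeneic 2 was -0.257 over the members and -0.325 over all genes. In the other tested classes it ran from -0.607 to -0.499 over the members and from -0.321 to -0.236 over all genes. These are correlations across genes of 1 library, which share its cells and depth, and the part of length in the level of the members was not tested.

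**Figure D4:**
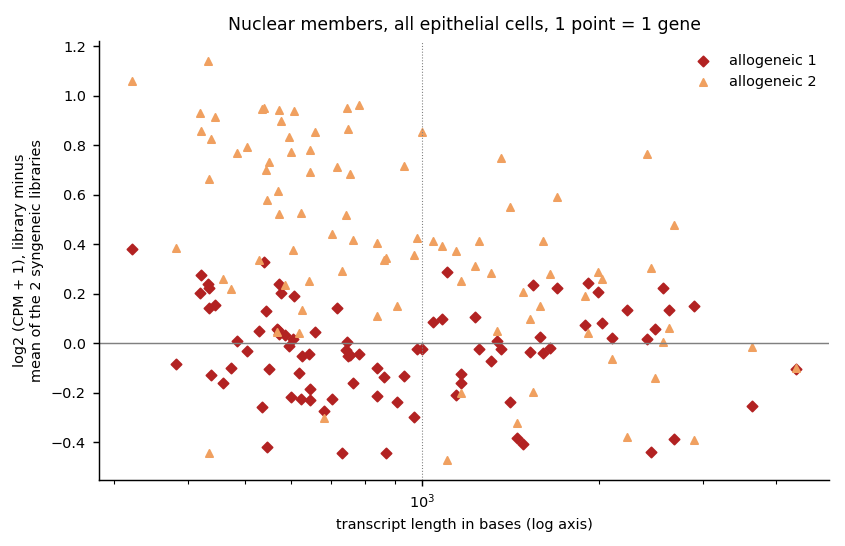
Departure of each allogeneic library from the syngeneic mean (log2 of CPM + 1, all epithelial cells) against annotated transcript length (bases, log axis) for the 90 tested nuclear members; the dotted line marks 1000 bases. Points of allogeneic 2 fall with length (rho -0.538), while those of allogeneic 1 lie around 0.

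Mitochondrial DNA is transcribed as long precursors of both strands that are then cut into single messengers, so its genes share their transcription but not their processing and stability. No mt- gene was called by edgeR in any class in the fits to all 4 libraries with the reported low-count filter. In epithelial cells mt-Atp6 stood at 15811, 14587, 17371 and 8449 CPM, and mt-Co3 at 18206, 17799, 19463 and 11497 CPM. Both were highest in allogeneic 1 and lowest in allogeneic 2. mt-Co2, at 12902, 12225, 14197 and 9675 CPM, mt-Nd1, at 3418, 3132, 4456 and 2984 CPM, mt-Nd2, at 2403, 2361, 3422 and 2237 CPM, and mt-Nd4, at 5602, 5276, 5995 and 4498 CPM, kept the same order of libraries. mt-Co1 was lower in both allogeneic libraries, at 10275 and 10267 against 10053 and 7431 CPM (log2 fold change -0.21 ± 0.30, edgeR, adjusted p = 0.877). mt-Cytb, the complex III subunit, stood at 11468, 10373, 12195 and 11112 CPM, and mt-Nd5 at 654, 687, 698 and 805 CPM. The lowest counts were those of mt-Atp8, at 91.0, 77.8, 126 and 68.1 CPM, and of mt-Nd6, at 6.64, 9.32, 12.5 and 9.20 CPM; mt-Nd6 lies on the other strand and its messenger is known to lack the poly(A) tail that the 3′ kit captures.

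Within the pool of mt- UMIs, several genes set 1 allogeneic library apart, among them the small genes mt-Nd4l and mt-Nd3. mt-Nd4l (chrM:9877-10173) took 0.606%, 0.729%, 0.603% and 2.35% of mt- UMIs in epithelial cells, and its share in allogeneic 2 was 1.97% to 2.58% in the 7 epithelial classes and 1.91% in T or NK-like cells. mt-Nd3 (chrM:9459-9806) took 0.427%, 0.445%, 0.777% and 0.395%, and was highest in allogeneic 1 in each class except enteroendocrine-like cells, T or NK-like cells included (0.358%, 0.378%, 0.656% and 0.393%). Both genes code for small membrane subunits of complex I and neighbour each other on mitochondrial DNA. mt-Nd4l shares bases with mt-Nd4 (chrM:10167-11544), as mt-Atp8 (chrM:7766-7969) does with mt-Atp6 (chrM:7927-8607), so how counts are split between these pairs is uncertain. Longer genes also set allogeneic 2 apart. In epithelial cells mt-Atp6 took 19.36%, 18.77%, 19.47% and 13.98% of mt- UMIs, and mt-Cytb 14.04%, 13.35%, 13.67% and 18.39%. In each class, T or NK-like cells included, allogeneic 2 was lowest for mt-Atp6 and highest for mt-Cytb and mt-Nd5.

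Of the changes of the pool that both allogeneic libraries shared, some differed among classes and some did not. In enterocyte-like cells mt-Co1 took 17.3% and 19.2% of mt- UMIs in syngeneic libraries and 10.1% and 12.2% in allogeneic ones, the largest gap between the group means of any mt- gene there, and its level was lower in both allogeneic libraries, at 19457, 21171, 14301 and 10509 CPM. mt-Cytb took 10.9% and 10.3% against 12.8% and 17.0%, and mt-Nd2 2.34% and 2.35% against 3.24% and 3.71%. In stem-like cells the share of mt-Co1 was instead higher in the allogeneic libraries, at 12.2% and 14.3% against 11.8% and 11.4%, and mt-Co3 was lower, at 20.8% and 16.9% against 22.3% and 23.2%. mt-Nd1 held a larger share in both allogeneic libraries in stem-like, cycling progenitor-like, enterocyte-like, Paneth-like and goblet-like cells. mt-Nd2 did so in these classes and in enteroendocrine-like and tuft-like cells. In Paneth-like cells its margin was small, with 3.189% in allogeneic 2 against 3.187% in syngeneic 2. No test was run on these shares, and the edgeR log2 fold changes of mt-Co1 were -0.53 ± 0.38 (adjusted p = 0.549) in enterocyte-like and -0.04 ± 0.22 (adjusted p = 0.987) in stem-like cells.

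**Figure D5:**
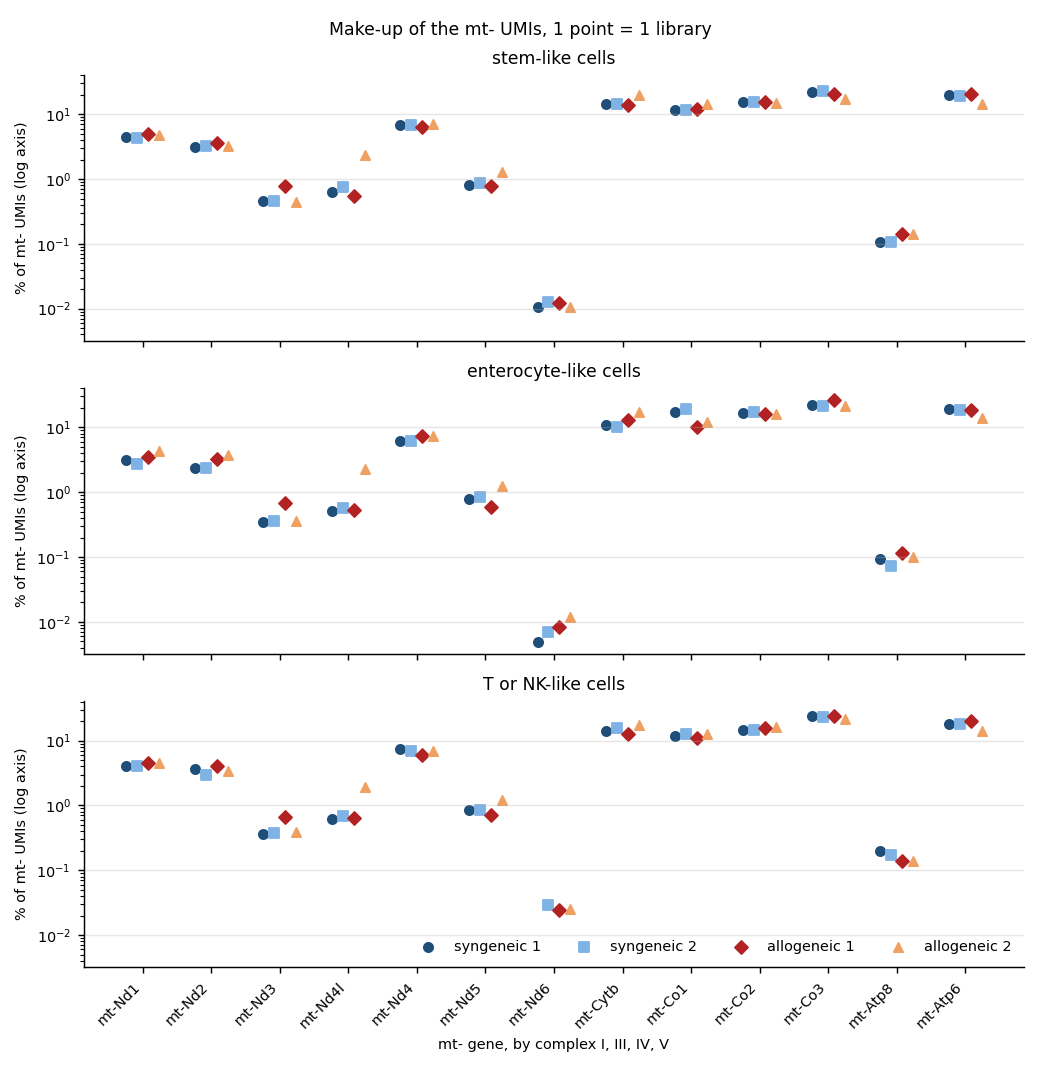
Share of each mt- gene in the mt- UMIs (percent, log axis) in stem-like, enterocyte-like and T or NK-like cells; each point is 1 library, and mt-Nd6 of syngeneic 1 is missing from the last panel because it had no UMI there. mt-Nd4l of allogeneic 2 and mt-Nd3 of allogeneic 1 stand above the other libraries in each panel, and mt-Co1 is lower in both allogeneic libraries in enterocyte-like cells.

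Other genes of oxidative metabolism were taken from lists of related pathways, and few of them were called; 8 of the 9 lists are given here for all epithelial cells. There edgeR called 0 of 25 TCA cycle genes, 0 of 17 glycolysis genes, 0 of 77 mitochondrial ribosome genes, 0 of 26 biogenesis regulators, 0 of 20 carriers and channels, 0 of 11 antioxidant genes, 0 of 18 stress response genes and 0 of 50 further assembly factors and electron carriers. In this fit 0.158% of all 12037 genes tested were called, so that counts of 0 in lists of this size were near the background. The medians of these lists ran from -0.05 for the biogenesis regulators to 0.39 for the carriers and channels, where the nuclear members gave 0.28.

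Slc25a4, the ADP/ATP carrier that exchanges the product of complex V across the inner membrane, rose in 2 classes. In cycling progenitor-like cells it stood at 12.1, 9.40, 55.5 and 78.5 CPM (2.74 ± 0.31, edgeR, adjusted p = 0.000259) and in enterocyte-like cells at 47.8, 28.0, 100 and 141 CPM (1.91 ± 0.37, adjusted p = 0.0331). Pdk2, a kinase that inhibits pyruvate dehydrogenase, rose in enterocyte-like cells from 23.7 and 26.3 to 62.3 and 52.2 CPM (1.39 ± 0.28, edgeR, adjusted p = 0.0373). Cat, catalase, fell there from 141 and 133 to 43.5 and 11.6 CPM (-2.30 ± 0.46, edgeR, adjusted p = 0.0373), with -1.61 without allogeneic 2 and -3.19 without allogeneic 1. In enterocyte-like cells the calls of Slc25a4, Pdk2 and Cat were lost without the mitochondrial limit, with adjusted p of 0.0579, 0.0598 and 0.0924 by edgeR, and with library totals in place of TMM. Without syngeneic 2 the adjusted p was 0.293 for Slc25a4 and 0.385 for Pdk2, and without syngeneic 1 it was 0.661 for Pdk2. Cycling progenitor-like cells also had higher Pkm, pyruvate kinase (1.29 ± 0.30, adjusted p = 0.0285), higher Acadl, long-chain acyl-CoA dehydrogenase (0.96 ± 0.24, adjusted p = 0.0427), and lower Hadh, a later enzyme of the same oxidation (-1.11 ± 0.25, adjusted p = 0.0252), all by edgeR. The calls of Pkm, Acadl and Hadh were lost when either syngeneic library was left out, with edgeR's adjusted p from 0.332 to 0.908. In stem-like and Paneth-like cells no gene of these lists was called, where 0.833% and 1.11% of all genes were.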

How the data were processed

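UMI counts per gene and cell barcode were deposited as 1 matrix per library. Per the submitters' processing notes, the authors made these counts with Cell Ranger 2.1.1 against mm10; the matrix headers name version 3.1.0, and the annotation release is not given in the sources used here. The raw counts carry no normalization, and no column belonged to another series (0).

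Barcodes with at least 500 genes, at least 1000 UMIs and at most 20% mt- UMIs were kept (scanpy 1.11.5), and 100 called doublets (0.8% of cells) were removed, 77 of them in allogeneic 2. A cell took the class of its highest marker score where that score reached 0.5 and 3 of the markers had UMIs. Classes with at least 40 cells in every library were tested; the stricter gate was run on the same classes, with 5 stem-like cells in allogeneic 2. Counts were summed per library and class and fitted over all genes with edgeR 4.0.16 (filterByExpr, TMM, robust quasi-likelihood, Benjamini-Hochberg, threshold 0.05), after a check on simulated data. DESeq2 1.42.0 and other filters, limits, gates and scalings were alternatives; library totals without TMM, leaving out libraries for the shares, and the alternatives for the list genes were added after seeing the data. Replicates are pooled libraries, so p-values measure the spread between 2 pools per group.

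The members, the gene lists and the tests were chosen with earlier results of these data known. Genes named with values were the Sdh and mt- genes, the isoform families, per complex the nuclear member with the largest fold change in epithelial cells, members past the threshold and, per list and class, up to 4 genes past it. Positions came from GENCODE M21, and transcript lengths from the same annotation. Promoters came from RefSeq (GRCm38.p6). A gene of the pathway lists is not reported here.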

Additional observations from a re-analysis of the deposited data

Results flagged for a closer look

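The allogeneic effect on Ndufc2, an accessory subunit of complex I, was 1.21 higher on the log2 scale in enterocyte-like than in stem-like cells. It is given here because the difference between the classes was itself tested, with the library as a block (edgeR, adjusted p = 0.00292). The effect on Ndufs1, an iron-sulfur subunit of the same complex, was 1.16 higher by the same test (edgeR, adjusted p = 0.0493). In both genes the enterocyte-like level was higher in both allogeneic libraries than in both syngeneic ones, while in stem-like cells Ndufs1 was lower in both allogeneic libraries, with 12 UMIs in allogeneic 2. With the stricter gate, which left 5 stem-like cells in allogeneic 2, the difference for Ndufc2 was 1.21 and was not called. The 2 calls among 90 nuclear members match the rate over all genes, 2.17%.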

How the results depend on the processing

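Of the alternatives to the counts of called members, the shares and the ratios, 279 gave a like value and 38 did not. A share or ratio counted as like when it moved by less than the larger SD of the 2 groups. Leaving out 1 of 2 libraries moves it by less than that SD whatever the values, so those alternatives were like by construction. The group difference in the epithelial nuclear share, which ran from -0.0395 to 1.8 percentage points, is among them. With DESeq2, 1 nuclear and 1 mt- member were called in enterocyte-like cells, as they were without the low-count filter (1 and 1). Those fits called 3.09% and 4.38% of all genes, and 1.09% of the nuclear members each. The stricter gate gave 1 nuclear call in stem-like cells (Ndufaf4, named after its value was seen), where allogeneic 2 held 5 cells. That fit called 2.76% of all genes and 1.16% of the nuclear members. In the test of the difference between enterocyte-like and stem-like cells the 2 nuclear calls became 1 with DESeq2 and 1 without the mitochondrial limit. They became 0 with the stricter gate. The 0 mt- calls became 3 of 13 with DESeq2 and 2 of 13 without the mitochondrial limit. Of all genes, 1.86% were called with DESeq2, 1.66% without that limit and 0.431% with the stricter gate. Leaving out 1 library at a time, nuclear calls ran from 0 to 72 in epithelial, 0 to 38 in stem-like, 0 to 57 in cycling progenitor-like, 0 to 74 in enterocyte-like, 0 to 37 in Paneth-like and 0 to 69 in goblet-like cells, and from 0 to 36 for the difference between classes. The mt- calls ran from 0 to 5, 0 to 9, 0 to 11, 0 to 8, 0 to 8 and 0 to 6 in the same order, and from 0 to 7. Without allogeneic 1, the fit with most of these calls, 45.2% of all genes were called in epithelial, 8.48% in stem-like, 35.5% in cycling progenitor-like, 33.2% in enterocyte-like, 9.9% in Paneth-like and 27.2% in goblet-like cells, and 4.89% for the difference between classes. The log2 fold change in epithelial cells took the other sign without some library for 13 of the 19 named nuclear members tested and 7 of the 13 mt- members; 2 of these were then called: Sdhb ran from -0.374 without allogeneic 2 to 0.603, and mt-Nd3 from -0.316 without allogeneic 1 to 0.832. For single genes, 533 alternatives kept the side of the threshold, 22 gained a call, 28 lost one and 2 reversed. Apart from left-out libraries, calls over all genes ran from 0 to 473 in epithelial cells (19 as reported), 46 to 241 in stem-like (74), 153 to 713 in cycling progenitor-like (380), 89 to 594 in enterocyte-like (190), 44 to 227 in Paneth-like (94), 14 to 336 in goblet-like cells (33) and 39 to 217 for the difference between classes (217). The cause of these changes was not tested. No paired analysis was possible because replicate numbers follow the order of the records and pair no samples.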
